A study of Mus musculus with 2 samples.

Results

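The 10 imprinted genes H19, Meg3, Peg3, Plagl1, Dlk1, Ndn, Mest, Sgce, Nnat and Kcnq1ot1 were followed in mammary epithelial cells (MECs) with and without Igfbp7. They were chosen as imprinted genes with a known link to growth that lie outside the insulin-like growth factor and cell cycle inhibitor families, and were found by their symbols among the 25810 gene symbols listed for both libraries. All 10 symbols were listed. The study set RNA from WT MECs beside RNA from Igfbp7-/- MECs, whose Igfbp7 gene lacks exon 1, so that each genotype was represented by 1 poly(A) RNA library sequenced on the SOLiD platform. The cells of both libraries came from inguinal mammary glands of mice at lactation day 3 and had been depleted of lineage positive cells with magnetic beads. The methods name CD45 (a leukocyte marker), CD31 (endothelial) and Ter119 (erythroid) as the depleted antigens, whereas the sample labels give CD35 in place of CD31. The labels give the genetic background as C57BL/6, and the methods describe the knockout as made on the CD1 background. The number of mice behind each library was not given in the sources used here, and with 1 library per genotype a difference between the libraries has no replicate check and cannot be told apart from a difference between animals or preparations.

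Imprinted genes are transcribed mainly from the copy inherited from 1 parent, because the copies carry different DNA methylation marks set in the egg or sperm. They lie in clusters in which a control region governs several genes, often with a long noncoding RNA among them, and many of them set the growth of the fetus and placenta and the behaviour of progenitor cells after birth. Igfbp7, the gene deleted here, encodes a secreted protein that binds insulin-like growth factors and the IGF1 receptor, and Igf2, a ligand of that receptor, is itself an imprinted gene. Which allele gave the reads was not measured in these libraries.

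The reads on listed genes numbered 28262015 in the WT library and 25306845 in the Igfbp7-/- library, or 82.4% and 72.3% of all mapped reads. RPM is the count of a gene scaled by all mapped reads of its library, and RPKM is RPM per kilobase of the gene length used in the deposited table. Ratios of Igfbp7-/- to WT were computed on RPM + 0.1, for genes that reached 1 RPM in either library, and a gene was called higher or lower at 1.5 times or more, the fold cutoff of the study, used here without its other criteria. Since low counts were even in 75.8% and 74.1% of cases, the read pair was taken as the unit of counting. All intervals are 95% exact intervals on read pairs, leave out the pseudocount, and cover counting error alone. The targeted gene followed its label: Igfbp7 was read 5224 times in WT and 37 times in the knockout library, that is at 152.2 and 1.06 RPM. Of the 14026 genes past the minimum, 44.5% were called in either direction, 21.4% as higher and 23.0% as lower in Igfbp7-/-, and the median log2 ratio was 0.03. Of the called genes, 48.2% were higher, and 62.2% when the counts were scaled to the reads on listed genes instead, which moved the median log2 ratio to 0.22.

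Of the 10 imprinted genes, 1 was called higher in the Igfbp7-/- library, 5 were called lower and 4 stayed within 1.5 times, beside 21.4% of all genes called higher and 23.0% called lower. The higher gene was Peg3, a zinc finger gene, at 5.14 times its WT level. The lower genes were Mest, an alpha/beta hydrolase family gene, at 8.16-fold, Sgce at 2.16-fold, Dlk1 at 1.83-fold, Nnat at 1.62-fold and Plagl1 at 1.62-fold. The noncoding RNA genes H19, Meg3 and Kcnq1ot1 and the necdin gene Ndn had ratios within 1.5 times. The median log2 ratio of the 10 genes was −0.45, and the lower and upper quartiles of all genes past the minimum were −0.52 and 0.51. The summed level of the 10 genes was 371.0 RPM in WT against 368.9 RPM in Igfbp7-/-, a log2 ratio of −0.0083, so that the sum hid opposite differences of single genes. In bulk RNA of this kind, fewer cells of a type and less RNA per cell cannot be told apart.

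Promoter sequences are shown for the genes with the largest differences in either direction, Peg3 with its cluster neighbour Zim1 and Mest, and for Meg3 and Kcnq1ot1, the most read of the genes that stayed within 1.5 times. Each window runs from 250 bases before to 50 bases after the RefSeq transcript start on build GRCm38.p6. RefSeq windows were found for 8 of the 10 genes, and H19 and Sgce had no entry. Of several windows for a gene, 1 is shown, the most CpG-rich for Meg3 and the first of the equally CpG-rich pair for Mest. Capitals mark matches on either strand to TGACGTCA, the letters of a full cAMP response element, to the palindrome GGGGCCCC, or to CCAAT, which appears as ATTGG where the match lies on the other strand. GCCATNTT, the letters recognised by YY1, was searched as well. No 2 matches overlapped.
Peg3 promoter, chr7:6730370-6730669, minus strand: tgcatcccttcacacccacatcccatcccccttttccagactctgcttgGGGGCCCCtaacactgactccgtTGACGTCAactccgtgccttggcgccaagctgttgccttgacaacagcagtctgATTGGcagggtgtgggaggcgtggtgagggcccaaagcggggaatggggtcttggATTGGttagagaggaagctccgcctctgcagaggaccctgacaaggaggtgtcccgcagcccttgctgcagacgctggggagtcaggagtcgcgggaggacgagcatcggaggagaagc
Zim1 promoter, chr7:6696383-6696682, minus strand: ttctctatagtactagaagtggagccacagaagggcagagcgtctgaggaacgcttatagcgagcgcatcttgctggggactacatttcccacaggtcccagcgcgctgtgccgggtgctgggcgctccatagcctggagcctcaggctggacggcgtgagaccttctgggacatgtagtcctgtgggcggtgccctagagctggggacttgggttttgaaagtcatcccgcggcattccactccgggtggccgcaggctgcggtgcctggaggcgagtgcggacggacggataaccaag
Mest promoter, chr6:30737800-30738099, plus strand: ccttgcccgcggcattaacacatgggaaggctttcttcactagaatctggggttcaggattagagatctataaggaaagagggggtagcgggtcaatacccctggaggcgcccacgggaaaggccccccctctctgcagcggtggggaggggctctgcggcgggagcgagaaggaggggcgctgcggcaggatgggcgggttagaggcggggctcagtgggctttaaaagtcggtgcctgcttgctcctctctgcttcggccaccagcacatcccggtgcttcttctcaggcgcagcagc
Meg3 promoter, chr12:109540746-109541045, plus strand: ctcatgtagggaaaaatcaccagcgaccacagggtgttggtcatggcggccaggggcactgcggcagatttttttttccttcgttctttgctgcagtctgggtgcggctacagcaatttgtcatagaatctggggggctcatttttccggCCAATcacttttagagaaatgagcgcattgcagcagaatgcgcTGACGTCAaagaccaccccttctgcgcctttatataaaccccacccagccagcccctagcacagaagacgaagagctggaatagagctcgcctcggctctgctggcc
Kcnq1ot1 promoter, chr7:143296498-143296797, minus strand: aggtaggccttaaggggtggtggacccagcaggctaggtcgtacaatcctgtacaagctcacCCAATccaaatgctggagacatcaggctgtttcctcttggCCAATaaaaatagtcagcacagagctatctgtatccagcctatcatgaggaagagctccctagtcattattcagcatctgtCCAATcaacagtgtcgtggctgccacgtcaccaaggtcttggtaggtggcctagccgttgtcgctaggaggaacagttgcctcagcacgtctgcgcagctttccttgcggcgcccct

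The Peg3 window held 1 match to TGACGTCA, 1 to GGGGCCCC and 2 to CCAAT. Of the 32851 RefSeq windows of the same length, 1.79% held TGACGTCA, 1.08% held GGGGCCCC and 37.4% held CCAAT. The Meg3 window shown also held 1 TGACGTCA and 1 CCAAT, and the Kcnq1ot1 window held 3 CCAAT. The other Meg3 window held none of these letters and 1 CpG. None of the 4 letter strings was found in the Mest windows, of which another holds 8 CpG, or in the Zim1 window, and GCCATNTT, which 6.05% of all windows held, was in none of the 5 windows shown. The windows of Peg3 and Meg3 each held 13 CpG dinucleotides, that of Mest held 17, that of Zim1 20 and that of Kcnq1ot1 9, beside a median of 7 over all windows. The Peg3 and Zim1 windows did not share any of the letter strings searched, and those of Peg3 and Meg3 shared TGACGTCA and CCAAT. Whether these letters bear on the levels of the genes was not tested.

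Several of these genes host miRNAs, and their mature sequences are shown because the deposited tables have rows named for these miRNAs beside the rows of the host genes. Coordinates are on GRCm38.p6 from RefSeq, and capitals mark the seed, bases 2 to 8 counted from the 5′ end. MiR-675 is made from H19, miR-770 from Meg3, and the miR-335 gene lies within Mest. The 6 seeds were all different. The libraries came from poly(A) RNA with short cDNA removed, so none of these rows was read as a level of a miRNA.
miR-675-5p, chr7:142577112-142577133, minus strand: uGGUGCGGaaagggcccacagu
miR-675-3p, chr7:142577078-142577099, minus strand: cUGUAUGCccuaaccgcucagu
miR-770-5p, chr12:109563710-109563731, plus strand: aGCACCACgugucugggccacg
miR-770-3p, chr12:109563744-109563765, plus strand: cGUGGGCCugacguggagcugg
miR-335-5p, chr6:30741314-30741336, plus strand: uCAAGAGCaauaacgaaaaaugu
miR-335-3p, chr6:30741354-30741375, plus strand: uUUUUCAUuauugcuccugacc

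H19, a maternally expressed noncoding RNA that restrains growth, had 150 reads in WT and 132 in Igfbp7-/-. Its level was 4.37 RPM (95% interval 3.44 to 5.48) in the WT library and 3.77 RPM (2.92 to 4.80) in the Igfbp7-/- library, and its log2 ratio was −0.21 (−0.71 to 0.28). The 2 levels of H19 overlapped within counting error. The row named Mir675 held the same 150 and 132 reads as H19, and the 84 bp of Mir675 lie within an exon of H19, so that row was not read as a level of the miRNA. H19 lies on chr7:149761434-149764048 of NCBIM37 (mm9), on the minus strand.

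Meg3, the maternally expressed noncoding RNA of the Dlk1-Dio3 cluster, was among the most read of the 10 genes, with 3692 reads in WT and 4060 in Igfbp7-/-. Its level was 107.6 RPM (102.7 to 112.6) in the WT library and 115.9 RPM (111.0 to 121.1) in the Igfbp7-/- library. Meg3 had a log2 ratio of 0.11 (0.02 to 0.20), a difference of 1.08-fold that was past counting error and well within 1.5 times. The row Mir770, whose 94 bp lie within Meg3 exon sequence, had 719 reads in WT and 933 in Igfbp7-/-, that is 20.9 and 26.6 RPM. Its log2 ratio was 0.35 (0.15 to 0.55), and the row was not read as a level of the miRNA. Meg3 lies on chr12:110779211-110809936 of NCBIM37, on the plus strand.

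Kcnq1ot1, a very long noncoding RNA made from the paternal allele that silences genes of its own cluster in cis, had 3564 reads in WT and 4235 in Igfbp7-/-. Its level was 103.8 RPM (99.1 to 108.8) in the WT library and 120.9 RPM (115.8 to 126.2) in the Igfbp7-/- library, with a log2 ratio of 0.22 (0.13 to 0.31). Meg3 and Kcnq1ot1 together held most of the reads of the 10 genes. Meg3 took 29.0% of the summed RPM in WT and 31.4% in Igfbp7-/-, and Kcnq1ot1 took 28.0% and 32.8%. Per length the order was different, because the deposited length of Kcnq1ot1 was 83437 bp, and its RPKM was 1.24 in WT and 1.45 in Igfbp7-/-.

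Peg3, a paternally expressed zinc finger gene that marks several kinds of stem and progenitor cells, had 425 reads in WT and 2245 in Igfbp7-/-. Its level was 12.4 RPM (10.8 to 14.2) in the WT library and 64.1 RPM (60.4 to 68.0) in the Igfbp7-/- library, so that the intervals lay far apart. Peg3 had a log2 ratio of 2.36 (2.16 to 2.59), the 131st highest of the 14026 genes. Per length, Peg3 stood at 1.87 RPKM in WT, above 28.2% of genes, and at 9.68 RPKM in Igfbp7-/-, above 67.9% of genes. Its share of the summed RPM of the 10 genes was 3.34% in WT and 17.4% in Igfbp7-/-. The gene lies on chr7:6656603-6683132 of NCBIM37 (mm9), on the minus strand.

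The other zinc finger gene, Plagl1, a transcriptional regulator also known as Zac1 that restrains the cell cycle, differed in the opposite direction. Plagl1 had 2075 reads in WT and 1309 in Igfbp7-/-, that is 60.4 RPM (56.8 to 64.2) and 37.4 RPM (34.6 to 40.4). Its log2 ratio was −0.69 (−0.84 to −0.55). The interval reached past the 1.5-fold line on the side of smaller differences, and with counts scaled to the reads on listed genes the log2 ratio was −0.50, within 1.5 times. Plagl1 lies on chr10:12810497-12851500 of NCBIM37, on the plus strand.

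Ndn, a paternally expressed gene of the Prader-Willi region whose product necdin binds E2F proteins and restrains cell division, had 226 reads in WT and 268 in Igfbp7-/-. Its level was 6.58 RPM (5.43 to 7.92) in the WT library and 7.65 RPM (6.41 to 9.06) in the Igfbp7-/- library, with a log2 ratio of 0.21 (−0.15 to 0.59). A difference in Ndn was not detectable at this depth. Ndn lies on chr7:69493163-69494814 of NCBIM37, on the plus strand.

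Dlk1, also called Pref-1, encodes a membrane protein with EGF-like repeats that holds preadipocytes undifferentiated. It was the lowest of the 10 genes, with 46 reads in WT and 24 in Igfbp7-/-, that is 1.34 RPM (0.85 to 2.01) and 0.685 RPM (0.354 to 1.20). Dlk1 had a log2 ratio of −0.87, or −0.97 without the pseudocount, and its interval of −2.11 to 0.10 included no difference. The call of Dlk1 as lower therefore stood within counting error. Dlk1 also passed the minimum of 1 RPM through the WT library alone. With 1 RPM required in both libraries, 9 of the 10 genes passed and 4 were called lower, beside 2548 of 12651 of all genes. Dlk1 lies on chr12:110691033-110701546 of NCBIM37, on the plus strand and 77664 bp from Meg3.

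Mest, a paternally expressed gene of the alpha/beta hydrolase family whose level follows the expansion of adipose tissue, had 1824 reads in WT and 225 in Igfbp7-/-. Its level was 53.1 RPM (49.7 to 56.7) in the WT library and 6.43 RPM (5.29 to 7.73) in the Igfbp7-/- library. The log2 ratio of Mest was −3.03 (−3.34 to −2.76), the 142nd lowest of the 14026 genes. Per length, Mest was the highest of the 10 genes in WT at 20.9 RPKM, above 83.3% of genes, and only the 6th in Igfbp7-/- at 2.53 RPKM, above 35.1% of genes. Its share of the summed RPM of the 10 genes was 14.3% in WT and 1.74% in Igfbp7-/-. The row Mir335, whose gene lies within Mest outside its exons, held 0 reads in both libraries, which was not read as absence of the miRNA. Mest lies on chr6:30673547-30698457 of NCBIM37, on the plus strand.

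Sgce encodes epsilon-sarcoglycan, a member of a membrane complex that links the cytoskeleton to the matrix. It had 250 reads in WT and 116 in Igfbp7-/-, that is 7.28 RPM (6.06 to 8.68) and 3.31 RPM (2.52 to 4.28). Sgce had a log2 ratio of −1.11 (−1.61 to −0.68), and the whole interval lay past the 1.5-fold line. Nnat, which encodes neuronatin, a small proteolipid of the endoplasmic reticulum, had 483 reads in WT and 302 in Igfbp7-/-. Its level was 14.1 RPM (12.4 to 16.0) in the WT library and 8.62 RPM (7.30 to 10.1) in the Igfbp7-/- library, and its log2 ratio of −0.70 (−1.01 to −0.41) had an interval on both sides of the 1.5-fold line. Scaled to the reads on listed genes, Nnat stood at −0.51, within 1.5 times. On NCBIM37, Sgce lies on chr6:4624350-4697204, on the minus strand, and Nnat on chr2:157385814-157388258, on the plus strand.

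**Figure D1:**
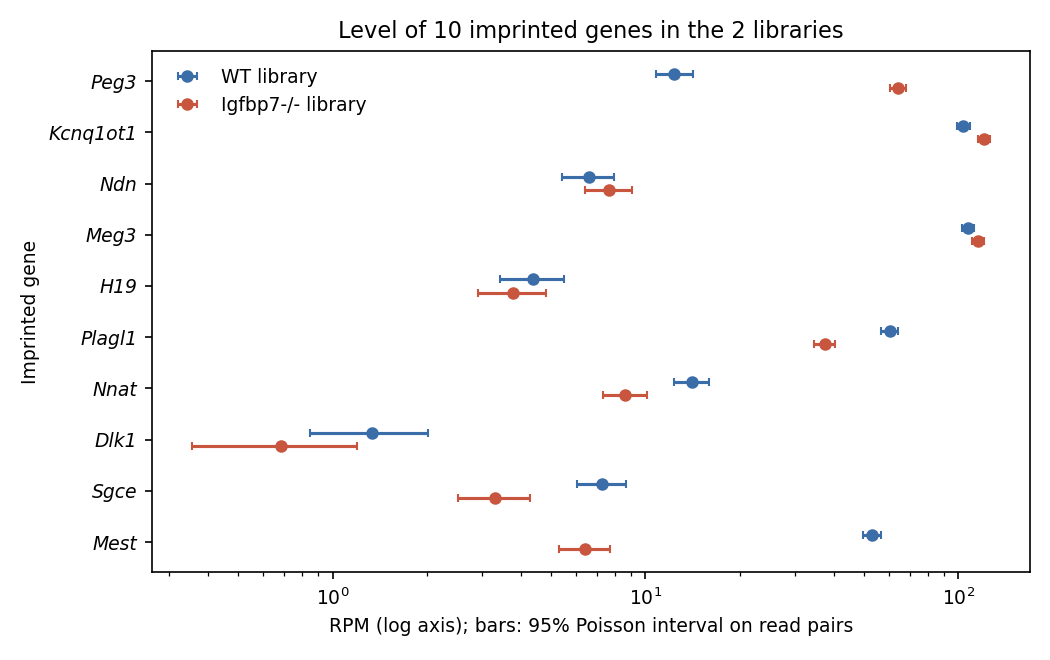
Level of each of the 10 imprinted genes in RPM on a log axis, with 1 point for the WT library and 1 for the Igfbp7-/- library and bars for the 95% exact Poisson interval on read pairs. The points of Peg3 (12.4 and 64.1 RPM) and Mest (53.1 and 6.43 RPM) lie farthest apart, in opposite directions, and those of Meg3, Kcnq1ot1, Ndn and H19 lie close together.

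The order of the genes by RPKM changed between the libraries. In WT the highest levels were those of Mest at 20.9, Nnat at 11.5 (11.505), Plagl1 at 11.5 (11.450) and Meg3 at 9.40 RPKM, with Nnat and Plagl1 next to each other and nearly equal. In Igfbp7-/- Meg3 was first at 10.1 RPKM, Peg3 was second at 9.68, Plagl1 came next at 7.08 and Nnat after it at 7.05. Dlk1 was last in both libraries, at 0.286 RPKM in WT and 0.146 in Igfbp7-/-. H19 and Kcnq1ot1 stood just above it, H19 at 1.67 RPKM in WT and 1.44 in Igfbp7-/-, and in Igfbp7-/- Kcnq1ot1 at 1.45 RPKM was level with H19. Sgce was at 4.004 and 1.82 RPKM, and Ndn at 3.99 and 4.63 RPKM, so that the pair, next to each other in WT, had separated in Igfbp7-/-.

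**Figure D2:**
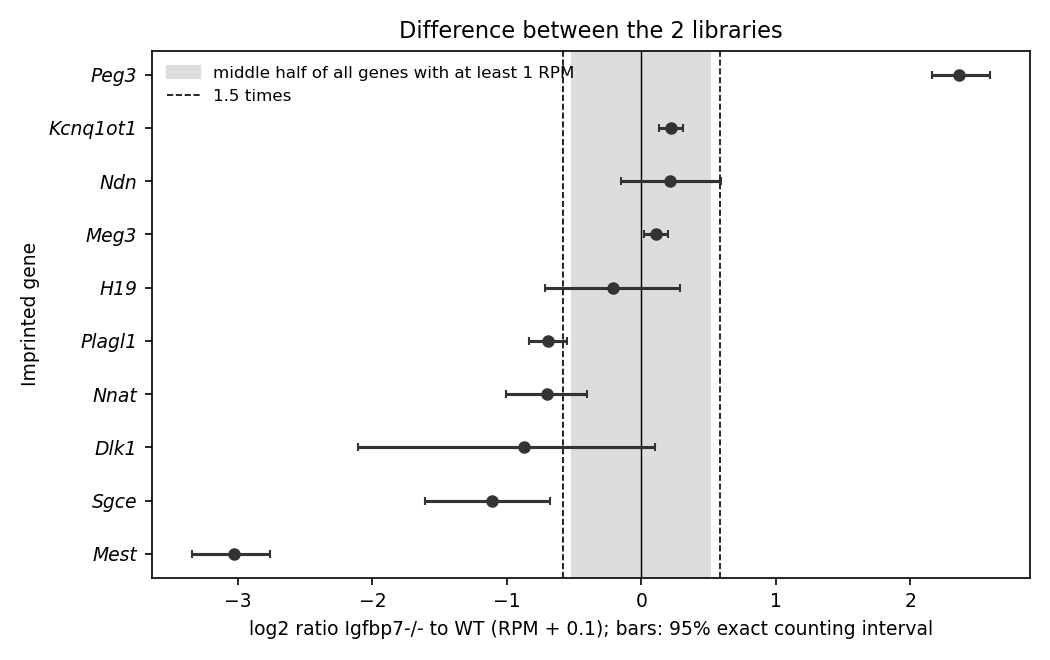
Log2 ratio of Igfbp7-/- to WT for each of the 10 imprinted genes on RPM + 0.1, with bars for the 95% exact counting interval, dashed lines at 1.5 times and a grey band from the lower to the upper quartile of the 14026 genes past the minimum (−0.52 to 0.51). Peg3 at 2.36 and Mest at −3.03 stand apart from the others, Plagl1, Nnat, Dlk1 and Sgce lie between −0.69 and −1.11, and the other 4 genes lie inside the band.

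The imprinted clusters around the 10 genes were then followed gene by gene, from a list of 40 further genes of the same clusters. Of these, 38 were listed in both libraries, Zfp264 and Zim2 were not matched, and 27 passed the minimum. In Igfbp7-/- 4 of the 27 were called higher, 7 lower and 16 within 1.5 times, beside 21.4% and 23.0% of all genes, and the median log2 ratio was −0.16, or −0.19 with Snrpn and Snurf, which hold the same reads, counted once. Scaled to the reads on listed genes, 8 neighbours were higher, beside 4463 of the 14567 genes then past the minimum. Ins2, Usp29, Magel2 and Klf14 were listed at 0 reads in both libraries, for which the upper limit of the exact interval is 0.215 RPM in WT against 0.211 RPM in Igfbp7-/-. Where 2 genes of a locus are compared, the difference of their log2 ratios was computed on the read pairs of both genes in both libraries, and it does not depend on how the libraries are scaled.

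In the Peg3 cluster on chromosome 7, Zim1, a maternally expressed zinc finger gene on the same strand as Peg3 and 7441 bp from it, was higher too. Zim1 had 72 reads in WT and 456 in Igfbp7-/-, that is 2.10 and 13.02 RPM, with a log2 ratio of 2.58 (2.12 to 3.18). The difference between the log2 ratios of Peg3 and Zim1 was −0.26 (−0.85 to 0.30), so the 2 genes could not be told apart in the size of their difference. Apeg3, an antisense transcript gene of the Peg3 locus named here after its values were seen, had 156 reads in WT and 540 in Igfbp7-/-, with a log2 ratio of 1.74 (1.39 to 2.15). The log2 ratio of Peg3 exceeded that of Apeg3 by 0.61 (0.17 to 1.04). Whether reads were counted by strand was not stated in the sources used here, so reads of Peg3 and Apeg3 cannot be told apart where they overlap.

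In the Peg10-Sgce cluster on chromosome 6 the genes went in different directions. Peg10, a paternally expressed gene derived from a retrotransposon, lies on the opposite strand with a gap of 101 bp to Sgce. Peg10 stood at 10.9 RPM in WT against 18.1 RPM in Igfbp7-/-, with a log2 ratio of 0.73 (0.47 to 1.001). The log2 ratio of Sgce was lower than that of Peg10, by −1.87 (−2.42 to −1.33). Ppp1r9a, which encodes the actin-binding protein neurabin, stood at 3.61 RPM in WT against 16.0 RPM in Igfbp7-/-, with a log2 ratio of 2.12 (1.75 to 2.57). Tfpi2, a secreted protease inhibitor gene, stood at 41.5 and 21.4 RPM, with a log2 ratio of −0.95, and Pon3, of the paraoxonase family, at 5.97 and 3.71 RPM, with −0.67. Casd1, Asb4 and Pon2 lay within 1.5 times, with log2 ratios of 0.53, 0.01 and −0.16.

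The differences of Mest and Nnat were not shared by the genes that overlap them. Copg2, a vesicle coat gene whose 3′ end overlaps that of Mest by 904 bp on the opposite strand, stood at 12.8 RPM in WT against 15.3 RPM in Igfbp7-/-, with a log2 ratio of 0.25. The log2 ratio of Mest was lower than that of Copg2, by −3.30 (−3.70 to −2.91), although reads in the shared stretch cannot be told apart without counting by strand. Blcap, whose gene contains Nnat on the opposite strand with 0 shared exon bases, stood at 32.9 RPM in WT against 35.1 RPM in Igfbp7-/-, with a log2 ratio of 0.09. The difference between Nnat and Blcap was −0.80 (−1.15 to −0.46). Next to Plagl1, Phactr2, a regulator of protein phosphatase activity, stood at 5.45 RPM in WT against 4.57 RPM in Igfbp7-/-, and its log2 ratio of −0.25 was not separated from that of Plagl1, the difference being −0.44 (−0.90 to 0.04).

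In the H19-Igf2 cluster, the growth factor gene Igf2 stood at 54.9 RPM in WT against 22.05 RPM in Igfbp7-/-, with a log2 ratio of −1.31 (−1.49 to −1.14). H19, which lies 72624 bp from Igf2 and shares its control region, exceeded Igf2 in log2 ratio by 1.10 (0.57 to 1.63). In the Dlk1-Dio3 cluster, Rian, a noncoding RNA gene downstream of Meg3, stood at 39.5 RPM in WT against 27.5 RPM in Igfbp7-/-, a log2 ratio of −0.52 within 1.5 times. Mirg, the last noncoding RNA gene of the same cluster, stood at 1.17 and 2.43 RPM, a log2 ratio of 0.998 (0.26 to 1.90). The 3 maternally expressed RNA genes of the cluster thus had different ratios: Meg3 exceeded Rian by 0.63 (0.43 to 0.82), and lay below Mirg, at −0.95 (−1.79 to −0.13). Dlk1 lay below Meg3, at −1.08 (−2.22 to −0.0043), an interval whose upper end was next to 0. Begain, at 3.06 and 2.37 RPM, was within 1.5 times.

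In the Prader-Willi and Angelman region, Snrpn and Snurf, which share a transcript, had the same 120 reads in WT and 180 in Igfbp7-/-, and their log2 ratio of 0.54 lay within 1.5 times. The difference between Ndn and Snrpn was −0.34 (−0.96 to 0.28). Ube3a, a ubiquitin ligase gene silent on the paternal copy in neurons, stood at 54.6 RPM in WT against 69.1 RPM in Igfbp7-/-, a log2 ratio of 0.34. Atp10a, a lipid flippase gene, stood at 37.5 and 14.8 RPM, a log2 ratio of −1.33. Atp10a was the 1 gene of this region called in either direction.

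In the Kcnq1 cluster, Cdkn1c, Kcnq1 and Phlda2, which are known to be silenced by Kcnq1ot1 on the paternal copy, were lower, and Kcnq1ot1 was not. Cdkn1c, which encodes the cell cycle inhibitor p57, stood at 10.9 RPM in WT against 4.54 RPM in Igfbp7-/-, with a log2 ratio of −1.25. Kcnq1, the potassium channel gene that Kcnq1ot1 runs antisense to, stood at 4.31 and 1.57 RPM, with a log2 ratio of −1.40 (−2.14 to −0.81). Phlda2, which restrains growth of the placenta, had 82 reads in WT and 10 in Igfbp7-/-, with a log2 ratio of −2.69 (−4.76 to −1.73). The log2 ratio of Kcnq1ot1 exceeded that of Cdkn1c by 1.49 (1.08 to 1.89), that of Kcnq1 by 1.68 (0.998 to 2.34) and that of Phlda2 by 3.28 (1.94 to 4.98). Slc22a18, another known target of the silencing, lay within 1.5 times, with a log2 ratio of 0.21. So did Osbpl5, Cd81 and Tssc4, also known to be maternally expressed in some tissue, with −0.02, −0.33 and −0.38. Nap1l4, at −0.23, stayed within 1.5 times too. What part Kcnq1ot1 had in the lower levels of its neighbours was not tested.

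**Figure D3:**
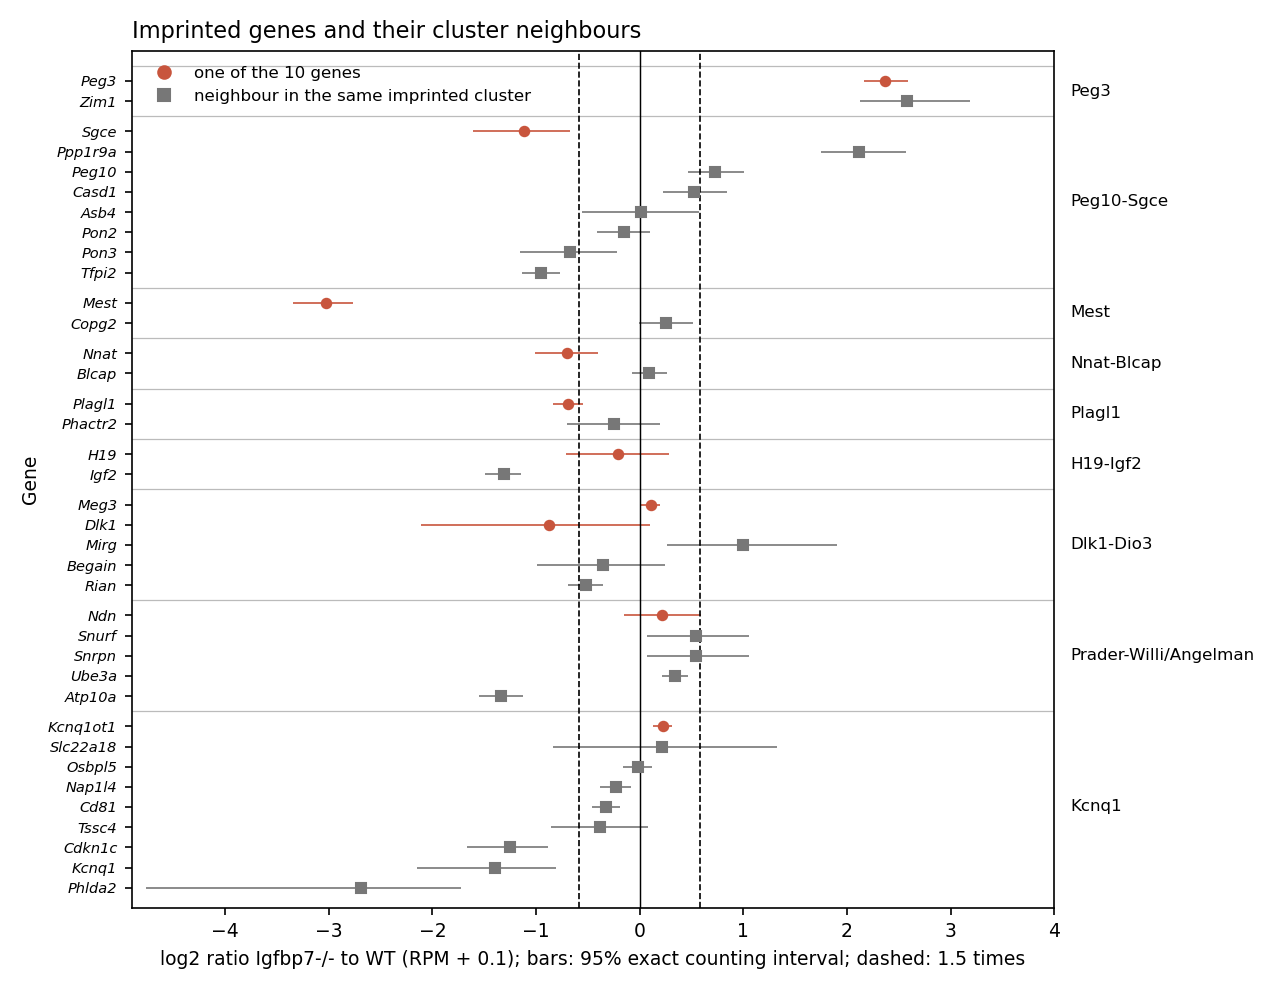
Log2 ratio of Igfbp7-/- to WT for the 10 imprinted genes (circles) and the 27 neighbours past the minimum (squares), grouped by imprinted cluster as named on the right, with bars for the 95% exact counting interval and dashed lines at 1.5 times. Peg3 and Zim1 lie together on the right at 2.36 and 2.58, whereas Sgce and Peg10, Mest and Copg2, H19 and Igf2, and Kcnq1ot1 and Phlda2 lie apart within their clusters.

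A list of 24 imprinted genes from other clusters was read in the same way, and 18 of them passed the minimum. In Igfbp7-/- 3 were called higher, 2 lower and 13 within 1.5 times, beside 21.4% and 23.0% of all genes, with a median log2 ratio of −0.01. Rasgrf1, a Ras exchange factor gene, stood at 1.17 RPM in WT against 4.74 RPM in Igfbp7-/-, Cobl, an actin nucleator gene, at 42.6 and 80.5 RPM, and Sfmbt2, a Polycomb group gene, at 2.24 and 3.66 RPM. The lower pair were Gnas, which encodes the stimulatory G protein alpha subunit, at 530.7 and 304.5 RPM, and Peg13, a noncoding RNA gene, at 35.5 and 22.4 RPM. The genes were also sorted by the allele each is known to be expressed from in some tissue, for Ube3a in neurons. The allele used in these cells was not measured, and some of the genes may use both. The genes sorted as paternally expressed did not go one way. Of the 8 paternally expressed genes among the 10, 1 was higher and 5 were lower, beside the same 21.4% and 23.0% of all genes, with a median log2 ratio of −0.70. Of 5 paternally expressed neighbours 1 was higher and 1 lower, with a median of 0.54, or 0.09 over 4 when Snrpn and Snurf, which hold the same reads, are counted once. Of 8 paternally expressed genes of other clusters 2 were higher and 1 lower, with a median of 0.31. The genes sorted as maternally expressed had medians of −0.05 over 2 of the 10 genes, −0.09 over 18 neighbours and −0.04 over 8 genes of other clusters.

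Many imprinted genes are known from mesenchymal, adipose and muscle cells as well as epithelium, so lists of cell type markers were read beside them. Of 10 luminal markers, 5 were called higher in Igfbp7-/-, 0 lower and 5 within 1.5 times. Of all genes, 21.4% were called higher and 23.0% lower. The luminal markers summed to 2041 RPM in WT against 4264 RPM in Igfbp7-/-. The most abundant of them in Igfbp7-/- was Krt18, a keratin of luminal cells, at 250.4 and 1174 RPM. In WT it was Cd14, at 469.85 and 677.45 RPM, within 1.5 times. Elf5, named here after its values were seen, leaned the other way at 137.3 and 95.9 RPM. Basal and myoepithelial markers were lower, 9 of 10 called lower and 0 higher, with a summed level of 3834 and 1223 RPM, with Acta2, smooth muscle actin, highest in WT at 1053 and 226.7 RPM, and Myh11, smooth muscle myosin, highest in Igfbp7-/- at 883.0 and 343.5 RPM. Both libraries thus held epithelial markers, in different proportions.

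Of the lists for cells outside the epithelium, the endothelial, leukocyte and pericyte lists were mostly called lower in Igfbp7-/-. The fibroblast and adipocyte lists were called lower in part. Of all genes, 21.4% were called higher and 23.0% lower. Of 14 fibroblast and matrix genes, 7 were called lower and 1 higher, with a summed level of 11454 RPM in WT against 6142 RPM in Igfbp7-/-, and Col3a1, a fibrillar collagen gene, at 4670 and 1951 RPM. The higher one was Fbln1, an extracellular matrix gene named here after its values were seen, at 24.3 and 36.8 RPM. The other 6, Pdgfra, Mfap5, Fbln2, Thy1, Postn and Dpt, stayed within 1.5 times. Their log2 ratios ran from −0.57 for Dpt to 0.45 for Pdgfra. Of 11 preadipocyte and adipocyte genes past the minimum, 5 were lower, 1 higher and 5 within 1.5 times, with a summed level of 1774 and 871.4 RPM. The lower ones were Fabp4, Adipoq, Cfd, Cidec and Lpl, lipoprotein lipase, the last at 815.6 and 341.8 RPM. Pdgfrb, Cd34, Ly6a, Zfp423 and Pparg stayed within 1.5 times, and the higher one was Lep at 8.04 and 16.8 RPM. Endothelial markers had 9 of 10 called lower, with a summed level of 1397 and 441.8 RPM, and Cdh5 at 583.7 and 183.5 RPM. Leukocyte markers had 9 of 10 lower, with 792.4 and 169.4 RPM, and Cd74 at 526.6 and 69.7 RPM. Of 7 pericyte markers 6 were lower and 0 higher, with 178.2 and 94.0 RPM, and Rgs5, a regulator of G protein signalling, at 71.3 and 35.3 RPM.

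Erythroid markers had 0 of 4 called, beside 44.5% of all genes called in either direction. Their summed level was 1066 RPM in WT against 1244 RPM in Igfbp7-/-, with Hbb-b1, a beta globin gene, at 668.9 and 696.9 RPM. Schwann and neural markers had 2 of 5 higher and 2 lower, with 140.6 and 169.7 RPM, Mbp, a myelin protein gene, at 70.9 and 113.6 RPM, and Nefl at 0 reads in WT. Skeletal muscle markers summed to 6.61 and 3.00 RPM, most of it from Des at 5.04 and 2.43 RPM, and the defining genes Myh4, Pax7 and Myod1 were at 0 in both libraries. The 5 lower imprinted genes were picked by direction, so sharing it with lists of lower summed level says nothing of cell type. Of these 5, Dlk1 stood within counting error, and Peg3 was the 1 imprinted gene called higher. The part of these cell types in the values of the imprinted genes was not tested.

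**Figure D4:**
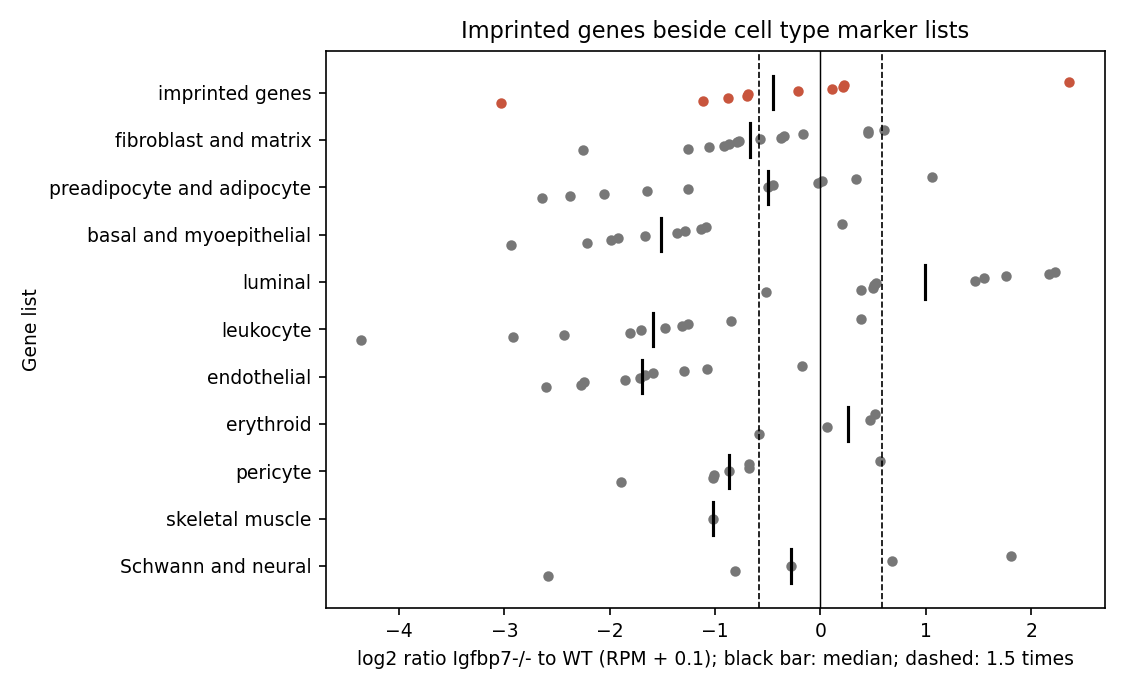
Log2 ratio of Igfbp7-/- to WT for the 10 imprinted genes (top row) and for each cell type marker past the minimum, 1 point per gene, with a black bar at the median of each list and dashed lines at 1.5 times. The imprinted genes spread from −3.03 to 2.36 around a median of −0.45, with the luminal list to the right at a median of 0.998 and the endothelial, leukocyte and basal lists to the left at −1.69, −1.59 and −1.51.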

How the data were processed

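Poly(A) RNA of lineage-depleted MECs was sequenced in 1 WT and 1 Igfbp7-/- library. The submitters' processing notes name Bowtie 0.12.3, SAMtools 0.1.15 and mm9, whereas the methods name a human build for a GeneSifter pipeline. The handling of reads mapping to several places and of strand was not given in the sources used here. The authors deposited read counts per gene without normalization, taken here as the count of reads, and blank cells, all with RPM 0, were read as 0. The RPM deposited by the authors is the count divided by all mapped reads of the library, 34327854 in WT and 35016847 in Igfbp7-/-, so reads outside the listed genes lower every RPM. The RPKM deposited by the authors is RPM per kilobase and is missing for 733 rows. The methods state that ribosomal RNA was filtered, but its rows held 2.95% and 3.15% of mapped reads. The 50 rows without a symbol held 0.0495% and 0.0670% of listed reads and were left out.

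Ratios were computed on RPM with a pseudocount of 0.1 RPM and a minimum of 1 RPM in one library, so ratios of genes near the minimum are understated. With 1 library per genotype no replicate test was possible and no p-value is given. Intervals are exact (Poisson for a level, Clopper-Pearson on the split of read pairs for a ratio, conditional odds ratio for a difference of ratios) at 95%. The 10 genes, the cluster and marker lists, the letter strings searched in promoters and the tests were chosen with earlier results of these data known. All 10 genes, every neighbour past the minimum, the called genes of other clusters and the most abundant marker of each list described are named. Alternatives were other scalings, RPKM, pseudocounts, minimums and a fold of 2. The scripts were tested on simulated counts. Python 3.11.15, numpy 2.4.6, scipy 1.17.1, pandas 2.3.3, matplotlib 3.10.9, R 4.3.3 and edgeR 4.0.16 (normalization factors only) were used, with NCBIM37 gene models.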

Additional observations from a re-analysis of the deposited data

How the results depend on the processing

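Peg3 alone was called higher among the 10 genes under every alternative run. Of the 80 log2 ratios of the 10 genes under 8 alternatives, 0 reversed, and 5 crossed the 1.5-fold line. Scaling to the reads on listed genes moved the median of all genes from 0.03 to 0.22, and 62.2% instead of 48.2% of called genes were then higher. It left 3 of the 10 genes lower in place of 5, with Plagl1 at −0.50 and Nnat at −0.51. Neighbours called higher rose from 4 to 8 and other imprinted genes from 3 to 5, with 1 instead of 2 lower. All genes called higher rose too, from 3006 of 14026 to 4463 of 14567, and all genes called lower fell from 3231 to 2712. Leaving ribosomal RNA out as well, chosen after seeing the data, gave 3 of the 10 lower, 8 neighbours higher, and other imprinted genes 5 higher and 1 lower. Of the 14626 genes then past the minimum, 4582 were higher instead of 3006 and 2693 lower instead of 3231, with 63.0% of calls higher. Without the 20 highest genes, 7 neighbours were higher, beside 3678 of 15088 genes. With a pseudocount of 1 RPM, Dlk1 stood at −0.47. Without a minimum, 4741 genes were higher, 5279 instead of 3231 lower, and 7 neighbours higher. A minimum of 10 RPM in one library was passed by 8201 genes and by only 6 of the 10 imprinted genes. The counts were then 1696 higher and 1672 lower, with 3 of these 6 genes lower. Of the neighbours 4 instead of 7 were lower, and 1 other imprinted gene was higher. At 2 times the counts were 1352 higher and 1936 lower, with 2 of the 10 genes lower. There 2 neighbours were higher, and 1 other imprinted gene higher and 0 lower, because the threshold is stricter. The smaller counts at 10 RPM follow from fewer genes passing. Depth limits Dlk1, H19 and Ndn, whose intervals include no difference. No paired analysis was possible because each genotype has 1 library, and for the same reason no replicate could be left out.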
